A study of Mus musculus with 8 samples.

Results

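*Zfp352*, *Dub2* and *Tdpoz5* were followed in mouse ESCs sorted for the activity of the *Zscan4* promoter. They are the 3 probes named *Zfp352*, or with a name beginning with Dub, Usp17l or Tdpoz, among the 128 probes that carry a gene name in the study's list of transcripts enriched in RA-Zscan4+ cells, out of 42006 probes on the array. That list was drawn at 3-fold from the RA pair of arrays, so the RA values of these genes are given as a description. The RM pairs were not the comparison that the list reports. Whether the RM arrays entered the error variance behind it is not stated, so the RM tests may not be fully independent of the choice. All cells were ES [129.3:zscan4cEmgfp] cells of strain 129/Sv, a single reporter line in which the *Zscan4c* promoter drives Emerald, a green fluorescent protein, and were sorted at culturing day 5 by the presence or absence of Emerald. RM-Zscan4+ and RM-Zscan4- cells came from regular medium (RM) and were measured on 3 arrays each, labeled as biological replicates, whereas RA-Zscan4+ and RA-Zscan4- cells came from 1.5 μM retinoic acid (RA) and were measured on 1 array each. The sorted sample was labeled with Cy3 and hybridized against a pool of RNA from 11 mouse cell lines in Cy5, without a dye swap, and the values below are log2 ratios of Cy3 over Cy5 unless another quantity is named.

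These genes are known from the 2-cell mouse embryo, the stage at which the embryonic genome is first transcribed in bulk, and a small, changing share of ESCs in culture passes through a state that shares many of its transcripts, among them *Zscan4*. *Zfp352* encodes a zinc finger protein and was first cloned from 2-cell embryos. The *Tdpoz* genes form a cluster on mouse chromosome 3 and encode proteins with a TRAF domain and a POZ domain, the arrangement found in SPOP, an adaptor of a ubiquitin ligase. The *Dub* genes, now named *Usp17l*, lie on chromosome 7 and encode deubiquitinating enzymes, which remove ubiquitin from proteins, and *Dub2* was first described as a cytokine-induced gene of lymphocytes.

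Since both the *Dub* and the *Tdpoz* genes exist as near copies, the 60-base probes that were measured are shown first. *Dub2* is a synonym of *Usp17lc* in the RefSeq gene table. The fourth probe is listed as LOC229571, a name whose number is the gene ID of *Tdpoz8*, so it belongs to the *Tdpoz* family although its listed name did not place it among the 3, and it is described beside *Tdpoz5*.
Zfp352 probe: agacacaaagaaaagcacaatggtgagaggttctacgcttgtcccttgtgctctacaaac
Dub2 probe: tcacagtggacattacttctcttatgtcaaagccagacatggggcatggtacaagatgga
Tdpoz5 probe: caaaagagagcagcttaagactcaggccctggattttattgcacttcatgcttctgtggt
Tdpoz8 probe: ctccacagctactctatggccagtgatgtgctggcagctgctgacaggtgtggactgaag
No other probe of the array aligned over 25 bases or more to the *Tdpoz5* or the *Tdpoz8* probe. The closest relative of the *Dub2* probe shared 22 of 25 aligned bases with it, and that of the *Zfp352* probe shared 20 of 25 on the opposite strand. The 4 probes thus reported on separate sequences, but whether a probe also catches transcripts of family members without a named probe was not analysed here.

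The region around each annotated transcription start, from 250 bases before it to 50 bases after it, was read from RefSeq (build GRCm38.p6), where 11 of the *Zfp352*, *Tdpoz* and *Usp17l* genes had a window. The windows of the genes measured are shown because their sequences differ in a repeated element. Capitals mark TAATCC, a core recognised by homeobox proteins of the Otx and Obox kind, and TATAAA, the TATA box, both searched on both strands.
Zfp352, chr4:90218570-90218869, + strand: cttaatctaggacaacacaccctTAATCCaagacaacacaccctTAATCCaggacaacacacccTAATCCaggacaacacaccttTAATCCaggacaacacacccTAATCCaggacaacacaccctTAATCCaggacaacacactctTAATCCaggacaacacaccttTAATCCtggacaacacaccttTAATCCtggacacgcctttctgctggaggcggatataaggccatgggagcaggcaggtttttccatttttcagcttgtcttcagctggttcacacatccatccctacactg
Tdpoz8, chr3:93068573-93068872, + strand: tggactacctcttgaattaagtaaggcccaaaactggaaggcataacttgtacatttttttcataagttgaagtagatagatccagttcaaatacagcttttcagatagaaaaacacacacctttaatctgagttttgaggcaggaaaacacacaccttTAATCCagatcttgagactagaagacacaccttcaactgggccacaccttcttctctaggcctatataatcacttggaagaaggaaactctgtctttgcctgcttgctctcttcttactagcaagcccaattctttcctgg
Tdpoz5, chr3:93961265-93961564, - strand: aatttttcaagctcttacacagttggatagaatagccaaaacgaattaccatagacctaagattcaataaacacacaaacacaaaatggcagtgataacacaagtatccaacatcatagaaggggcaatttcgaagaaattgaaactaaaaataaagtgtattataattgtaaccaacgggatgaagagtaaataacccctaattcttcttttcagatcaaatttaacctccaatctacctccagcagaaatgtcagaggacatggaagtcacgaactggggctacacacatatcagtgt
Usp17lc (Dub2), chr7:103416446-103416745, + strand: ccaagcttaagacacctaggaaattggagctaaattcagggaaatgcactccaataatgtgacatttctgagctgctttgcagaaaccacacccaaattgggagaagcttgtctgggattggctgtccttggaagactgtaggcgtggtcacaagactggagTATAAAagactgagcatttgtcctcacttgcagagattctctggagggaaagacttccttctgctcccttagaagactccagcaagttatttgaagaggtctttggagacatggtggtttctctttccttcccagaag

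The *Zfp352* window held 9 copies of TAATCC, spaced 20 or 21 bases apart, and the highest number in any of 32851 windows was this 9. At least 1 copy was present in 7.06% of all windows and 3 or more in 0.0244%. The *Tdpoz5* and *Usp17lc* windows held none, and the *Tdpoz8* window shown, the first of 2, held 1. The longest run found at least 2 times in both the *Zfp352* and the *Tdpoz8* window was ACACACCTTTAATC, a search chosen after the windows had been read and a run that overlaps TAATCC. It occurred 3 times in the *Zfp352* window and 2 times in the *Tdpoz8* window, while 0.125% of all windows held it on either strand. The second *Tdpoz8* window held 0 copies of it and 0 of TAATCC, and the *Tdpoz1* and *Tdpoz9* windows held 1 copy of it each. Which *Tdpoz8* start gives the measured transcript was not analysed. Among the 54 genes of the study's list that had a window, 4 held this run, and without *Zfp352* and *Tdpoz8*, from which it was read, 2 of 52 (3.85%) did, against 0.148% of all genes with a window. These were *Gm4340*, from a family of RNA export factors, with 2 copies 53 bases apart, and *Sp110*, a nuclear body protein, with 3 copies in one of its windows, each also 53 bases from the last. TATAAA was present in the *Usp17lc* window and in 13.6% of all windows. AGGTCA, the core of the site that RA receptors bind, was present in 16.3% of all windows and in no *Zfp352*, *Tdpoz* or *Usp17l* window, which says only that these letters are not there. Near copies limited what a window can tell, since the *Tdpoz5* and *Tdpoz7* windows were the same at 299 of 300 bases and the *Usp17lc* and *Usp17ld* windows at 269 of 278 aligned bases.

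The sort was checked with *Zscan4* itself. RM-Zscan4+ arrays gave log2 ratios of 5.08, 5.59 and 5.03, RM-Zscan4- arrays 0.10, 0.21 and 0.98, and the RA pair 6.13 against 1.88. *Zscan4* was thus higher in every Emerald-positive sample, and 27.8-fold higher in RM (limma, adjusted p = 0.00378). Its Cy5 signal was also higher on each Emerald-positive array than on its partner, by 2.14- to 6.51-fold, although the reference was the same RNA. For *Zfp352*, *Dub2* and *Tdpoz5* the Cy5 signal on an Emerald-positive array was between 0.789 and 1.47 times that on its partner. Of the other markers, *Fbxo15* and *Zfp296*, which ESCs express, were measured with Cy3 signals from 5.34 to 127 times the level of the negative controls. Their RM folds of 1.82 and 1.94 did not pass (limma, adjusted p = 0.566 and 0.517) and were close to those of *Dub2* and *Tdpoz5* below. The other 5 of 7 ESC markers, the 5 feeder fibroblast markers and the 8 markers of RA-induced differentiation had no named probe here. Above local background, the median Cy3 signal of an array lay between 114 and 241 intensity units, and the 95th percentile of 314 negative control spots lay between 31.0 and 49.0, the level against which signals are given below. The RM arrays fell in 2 extraction batches (the feature extraction of the scans), replicates 1 and 3 in one and replicate 2 in the other, each with both groups.

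*Zfp352* was the gene of the 3 with the widest separation in regular medium. Its log2 ratio was 1.44, 2.34 and 1.53 in RM-Zscan4+ and -0.01, 0.01 and 0.04 in RM-Zscan4-. The groups did not overlap, the RM-Zscan4- arrays all lay near 0, and replicate 2 stood above the other two RM-Zscan4+ arrays. The mean was 1.77 ± 0.49 (SD, n = 3) against 0.01 ± 0.03 (SD, n = 3), a difference of 1.76 ± 0.24 (SE) or 3.38-fold, with a 95% interval from 2.27- to 5.03-fold. In the limma fit across 42006 probes the adjusted p was 0.0931, under the false discovery rate of 0.15 that the methods set. A reconstruction of the t-statistics that the methods describe gave an adjusted p of 1 and called 0 probes. The paper reports genes enriched in RM-Zscan4+, which the reconstruction did not reproduce, so its calls do not stand for the study's own test. The *Zfp352* estimate was over 3-fold, but its interval was not. With limma at the rate of 0.15, 0.348% of the probes were higher in RM-Zscan4+, and 0.193% were also at least 3-fold higher. The first share is 146 probes, and 777 were higher with the replicate number as a block. The rise was 2.74-, 5.02- and 2.81-fold in the pairs formed by replicates 1, 2 and 3, 2.77-fold within the batch of replicates 1 and 3, and 5.02-fold within that of replicate 2. The call depended on which arrays entered: it was kept without RM-Zscan4+ replicate 2 (2.78-fold, adjusted p = 0.0100 in limma) and lost when any one of the other 5 RM arrays was left out, with folds from 3.35 to 3.79 and adjusted p-values from 0.161 to 0.422 in limma.

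*Tdpoz5* had a smaller but more even change. Its log2 ratio was 0.67, 0.74 and 0.76 in RM-Zscan4+ and -0.14, -0.16 and -0.07 in RM-Zscan4-. The arrays of a group lay close together and the groups did not overlap. The software assigned these ratios errors from 0.26 to 0.38 on the log2 scale, larger than the SDs that follow, on which the SE rests. The mean of 0.72 ± 0.05 (SD, n = 3) was 0.84 ± 0.07 (SE) above that of -0.12 ± 0.05 (SD, n = 3), or 1.80-fold, with a 95% interval from 1.61- to 2.01-fold. *Tdpoz5* passed the false discovery rate (limma, adjusted p = 0.0108) and stayed under 3-fold. It was not called with the reconstructed t-statistics (adjusted p = 1). Its 3 pairs gave 1.75-, 1.87- and 1.77-fold, and the call was kept when any one RM array was left out (adjusted p from 0.0390 to 0.0938 in limma). With the Cy3 signal taken alone the fold was 1.84 with an SE of 0.19 on the log2 scale, and the call was lost (adjusted p = 0.325 in limma).

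The second *Tdpoz* probe, that of *Tdpoz8*, gave 1.22, 0.99 and 0.87 in RM-Zscan4+ and -0.24, 0.05 and 0.67 in RM-Zscan4-. Replicate 3 of RM-Zscan4- lay only 0.20 below the lowest RM-Zscan4+ array, and the groups did not overlap. The difference was 0.87 ± 0.24 (SE), or 1.83-fold, and did not pass (limma, adjusted p = 0.467). The 95% interval of the *Tdpoz8* change, from 1.22- to 2.73-fold, contained that of *Tdpoz5*.

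*Dub2* gave 0.42, 1.00 and 0.41 in RM-Zscan4+ and -0.19, -0.44 and -0.04 in RM-Zscan4-. Every RM-Zscan4+ array was above every RM-Zscan4- array, and replicate 2 held both the highest and the lowest value. The difference of 0.83 ± 0.19 (SE) was 1.78-fold, with a 95% interval from 1.30- to 2.45-fold, about the size of that of *Tdpoz5*, but it did not pass over all probes (limma, adjusted p = 0.341). The SD was 0.33 in RM-Zscan4+ and 0.20 in RM-Zscan4- (n = 3 each), against 0.05 in both groups for *Tdpoz5*. The change was 1.45-fold within the batch of replicates 1 and 3 and 2.70-fold within that of replicate 2. All 3 genes had every RM-Zscan4+ array above every RM-Zscan4- array, as did 4.97% of the probes with 6 values. At the false discovery rate 2 of the 3 passed, against 0.348% of all probes and 75 of the 128 listed probes. The count therefore does not set the 3 genes apart from the list they came from.

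**Figure D1:**
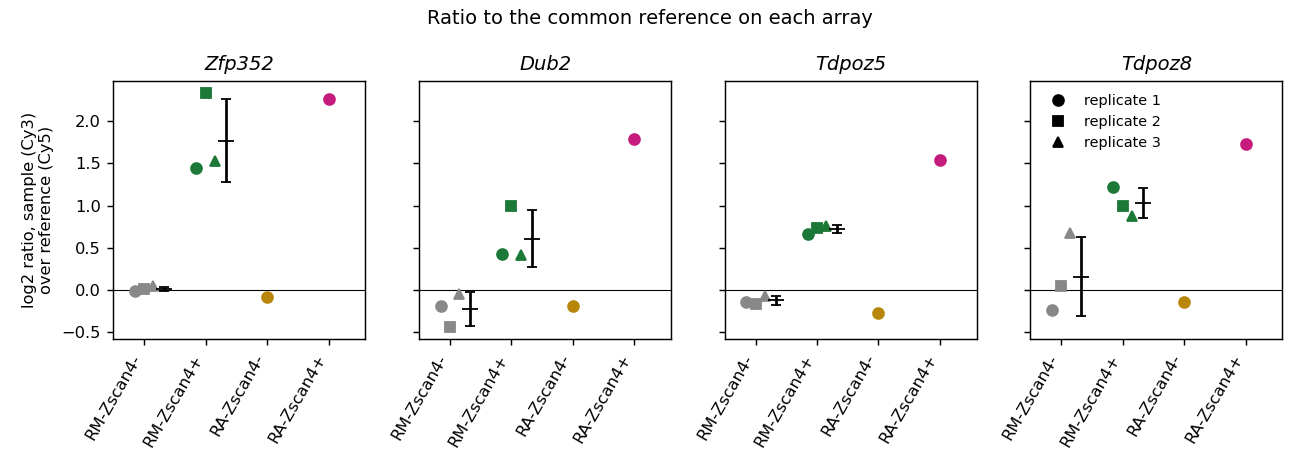
Log2 ratio of the sorted sample (Cy3) over the common reference (Cy5) for 4 probes, 1 point per array, with the marker shape giving the replicate number. Bars show the mean and SD of the 3 RM arrays of a group; RM-Zscan4+ lies above RM-Zscan4- for each probe, by 1.76 for *Zfp352* and by 0.83 to 0.87 for the others.

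The signals behind these values are given next, and whether signal level accounts for their spread was not tested. For *Zfp352* the Cy3 signal above background was 285, 265 and 205 in RM-Zscan4+ and 81.3, 70.0 and 99.4 in RM-Zscan4-. In RM-Zscan4- it was thus 1.91, 1.77 and 2.04 times the 95th percentile of the negative controls, and in RM-Zscan4+ 6.68, 8.56 and 4.20 times. *Dub2* was nearest to the controls, at 1.87, 1.15 and 1.71 times in RM-Zscan4- and 3.29, 2.85 and 2.48 times in RM-Zscan4+. The lowest of these, 45.5 intensity units in RM-Zscan4- replicate 2, went with the largest error that the software assigned to a ratio of the 3 genes, 0.87 on the log2 scale. *Tdpoz5* was at 2.96, 2.47 and 2.62 times in RM-Zscan4- and at 5.96, 4.43 and 4.65 times in RM-Zscan4+. The reference gave between 4.13 and 16.8 times the level of its own controls in Cy5, and the weakest signals were those of the Emerald-negative cells in Cy3. In sorted bulk samples, fewer cells that express a gene and less RNA per cell cannot be told apart.

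**Figure D2:**
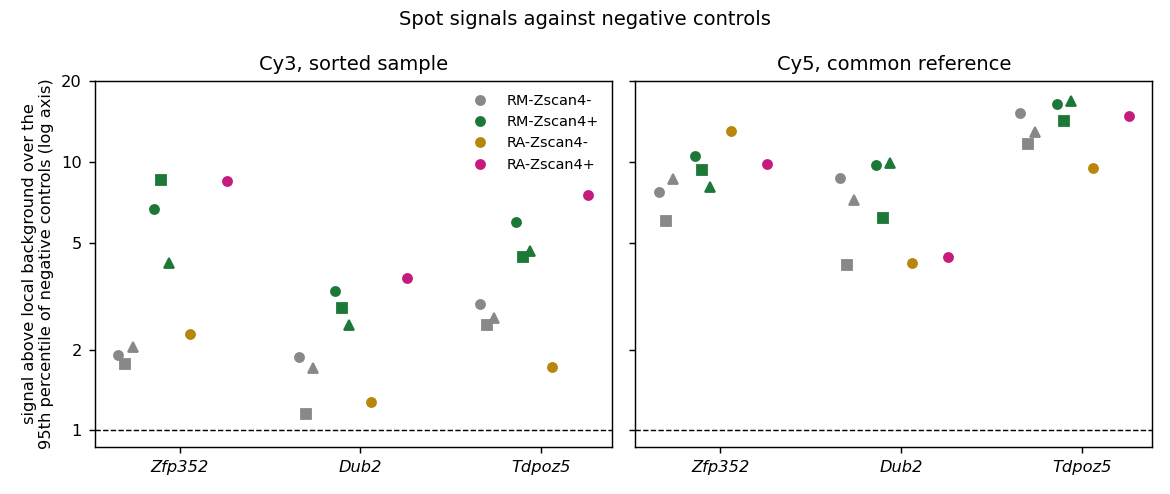
Signal above local background divided by the 95th percentile of the negative control spots of the same array and dye, on a log axis, 1 point per array with shapes for replicates as in the plot of ratios; the dashed line is the level of the controls. All points lie above it, with *Dub2* nearest at 1.15 in Cy3.

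In RA, *Zfp352* had a log2 ratio of 2.26 in the Emerald-positive and -0.08 in the Emerald-negative cells, a 5.06-fold difference. For *Dub2* the values were 1.79 and -0.19, or 3.92-fold. *Tdpoz5* gave 1.55 and -0.27, or 3.51-fold. *Tdpoz8* gave 1.73 and -0.14, or 3.66-fold. These differences chose the list and each rests on 1 array against 1. The error that the software assigns to the 2 ratios combined to 0.43 for *Zfp352*, 0.81 for *Dub2* and 0.48 for *Tdpoz5* on the log2 scale, which covers the measurement of the spots and not the spread between cultures. The limit of 3-fold in this pair was reached by 0.486% of 41958 probes, and *Zfp352*, *Dub2* and *Tdpoz5* took positions 114, 148 and 162 in order of fold. Next to the 3-fold limit, the listed probe just inside was *BC038328* at 3.02-fold, and the single listed probe below it was B020006M18Rik at 2.55-fold. The Cy5 signal of *Tdpoz5* was 1.47 times as high on the RA-Zscan4+ array as on its partner, and Cy3 alone gave 5.05-fold. Background correction by normexp with loess gave 2.95-fold for *Tdpoz5* and 2.79-fold for *Dub2*.

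Set beside regular medium, the RA-Zscan4- value of *Dub2* lay within the range of the 3 RM-Zscan4- arrays, and those of *Zfp352* and *Tdpoz5* lay 0.10 and 0.14 below the RM-Zscan4- mean. The RA-Zscan4+ value of *Zfp352* lay between those of RM-Zscan4+ replicates 2 and 3. Those of *Dub2* and *Tdpoz5* were both 0.79 above the highest RM-Zscan4+ array, and that of *Tdpoz8* was 0.51 above it. These gaps were not tested, and both RA arrays formed an extraction batch of their own, so medium and batch cannot be told apart.

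**Figure D3:**
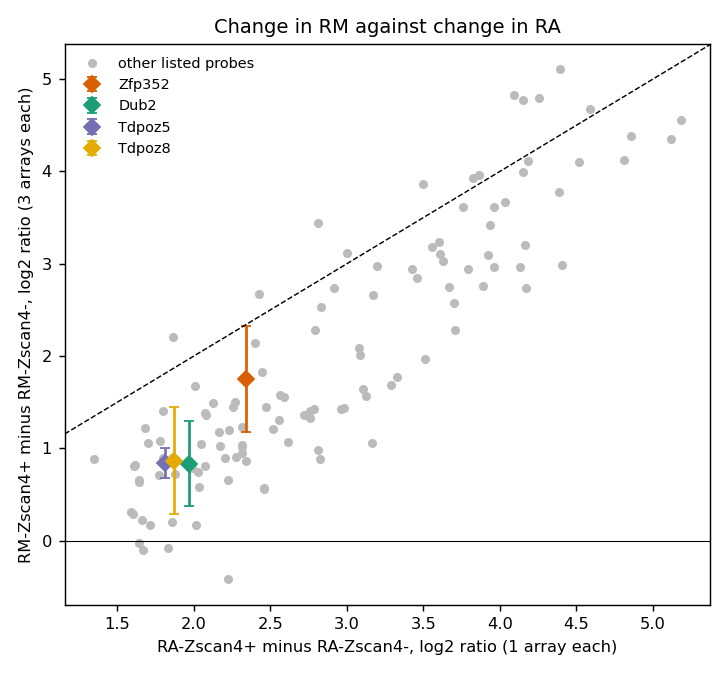
Log2 difference between Emerald-positive and Emerald-negative cells in RM (3 arrays each) against that in RA (1 array each) for the 121 listed probes with a value in both, with 95% intervals of the RM difference for the 4 probes described; the dashed line marks equal change. The 4 probes lie below the line, as do most of the listed probes, with *Zfp352* at 1.76 in RM and 2.34 in RA. The horizontal axis is the one the list was drawn on.

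Among the listed probes, *Zfp352* lay above the median change in RM, and *Tdpoz5* and *Dub2* lay below it. In RA all 3 lay under the list's median of 6.14-fold. There *Zfp352*, *Dub2* and *Tdpoz5* took positions 73, 97 and 104 of the 121 listed probes with an RA value. The median listed probe was 2.70-fold higher in RM-Zscan4+, where the median of all probes was 0.993-fold, and in order of RM fold *Zfp352* took position 53, *Tdpoz5* position 97 and *Dub2* position 98 of 128. Among all 42006 probes, 0.250% had an RM difference at least as large as that of *Zfp352* and 1.06% one at least as large as that of *Dub2*. A list of 36 names of genes of the 2-cell state, which included the 3 genes, found 15 named probes. All 12 of the others were higher in RM-Zscan4+ at the false discovery rate, 11 of them at least 3-fold, with a median of 17.3-fold, where 75 of the 128 listed probes and 0.348% of all probes passed, 54 of the listed ones and 0.193% of all at 3-fold. They ran from *Sp110* (listed as 5830484A20Rik), at 1.86-fold, over *Gm4340* at 8.64-fold and the translation factor *Eif1a* at 9.45-fold, to *Tcstv1* and *Tcstv3*, genes named as a variable group of the 2-cell stage, at 25.5- and 34.4-fold. The 36 names did not include *Tdpoz8*, whose 1.83-fold change did not pass (limma, adjusted p = 0.467). The 12 others included *Zscan4*, at 27.8-fold, on whose promoter the cells were sorted, so its call followed from the sort. All 12 were named from a list drawn on the RA arrays and with results of these data known, so their count is a description.

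The log2 ratios of the 3 genes moved together, with a Pearson r between 0.910 and 0.954 over the 8 arrays and between 0.900 and 0.964 over the 6 RM arrays. All points share the same arrays and the separation of Emerald-positive from Emerald-negative samples. The 8 arrays include the RA pair on which the list was drawn, so part of that r was built in. Other listed probes came closer to each gene than the 3 came to each other. Among listed probes with a current gene symbol, the pattern closest to *Zfp352* over the 8 arrays was that of *Pramel18* (listed as LOC381535), a PRAME-like gene, with r = 0.996, followed by *Gm4954* (r = 0.994). Over the 6 RM arrays *Pramel18* was again first (r = 0.998), before *Ankrd22* (r = 0.998). For *Dub2* the closest was *Gm6189* (listed as EG620899), with r = 0.995 over the 8 and over the 6 RM arrays. *Hspa1a*, an inducible heat shock protein, and *Sp110* followed over the 8 arrays (r = 0.988 and 0.980), and *Dcbld1* and *Zfp975* over the 6 RM arrays (r = 0.989 and 0.986). For *Tdpoz5* the closest over the 8 arrays were *Ankrd22* (r = 0.982), *Lmx1a*, a LIM homeobox factor (r = 0.981), and *Sp110* (r = 0.977). Over the 6 RM arrays they were the DNA helicase gene *Pif1* (r = 0.995), *Hmga2-ps1* (r = 0.994) and *Avpi1* (r = 0.994). Among all probes with complete values, named or not, between 0 and 15 were closer than the one given.

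**Figure D4:**
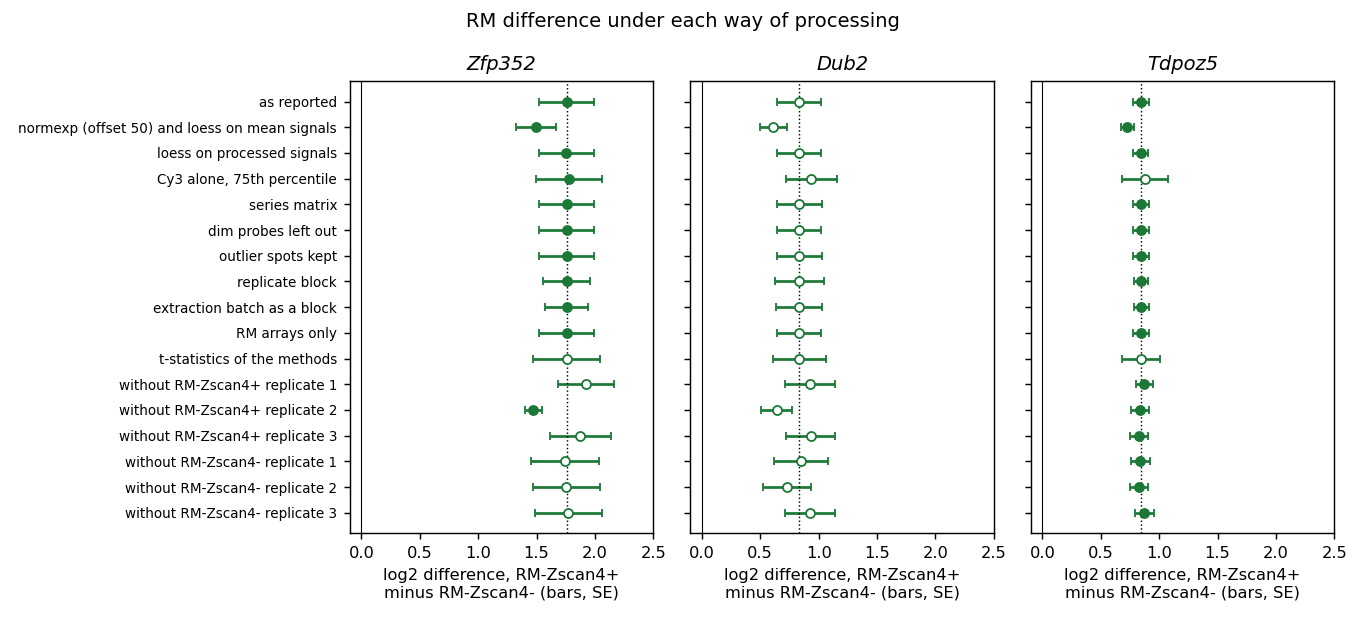
Log2 difference between RM-Zscan4+ and RM-Zscan4- for the 3 genes under each way of processing and with each RM array left out, with bars for the SE; filled points have an adjusted p under 0.15 and the dotted line is the reported value. The difference stayed above 0 throughout, between 1.47 and 1.92 for *Zfp352*, 0.61 and 0.94 for *Dub2* and 0.73 and 0.88 for *Tdpoz5*.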

How the data were processed

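For each array the authors deposited Feature Extraction output (version 7.5.1 per the file headers) as intensity values, with processed signals after background subtraction and dye normalization within the array, and an error of each log10 ratio. A deposited value table on the log10 scale was, for 99.5% of its values and within 0.001, the log10 ratio shifted by the mean log10 Cy5 of its probe. Here log2 ratios of processed Cy3 over Cy5 were taken, control and outlier-flagged spots left out (a fit drops only that array's value), and the 4 group means fitted with limma 3.58.1 in R 4.3.3 (lmFit, eBayes, Benjamini-Hochberg over 42006 probes). The single RA arrays add nothing to the spread. With 3 arrays against 3, the number of arrays limits the precision. On simulated data for the RM comparison (41113 probes, 200 raised by 2 on the log2 scale) limma recovered 98% with 12 false calls. The replicate block recovered 92.5% with 11 and the reconstructed t-statistics 64% with 0. The simulated noise was independent for each array, without pair or batch, and the rise of 2 exceeded the RM change of each gene followed. There the t-statistics pooled probes of similar mean log ratio, not of similar intensity. These rates therefore do not rank the fits for the real arrays.

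Same-numbered RM arrays deviated together (r = 0.388, 0.562 and 0.592 across probes). Arrays of different number were not compared, and replicate 2 was an extraction batch of its own in both groups. Pairing by number was therefore not told apart from batch here, and the replicate block is given as an alternative. Probes were compared by BLAST+ 2.17.0 with a word size of 11, and windows by Biopython 1.88. Of 128 listed names, 84 matched a current symbol. Genes were named by rule: the 3 genes, *Zscan4*, family probes, the 3 listed symbols closest to each gene (1 of them is not reported here), and the 2-cell list. Members and lists were chosen with earlier results of these data known. Alternatives were the normalization, the dye, the matrix, a dim-probe filter, outlier flags, blocks and the samples fitted. The others were the reconstructed t-statistics, a stricter rate and leaving out arrays. The list's own intensity and fold columns were not used.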

Additional observations from a re-analysis of the deposited data

How the results depend on the processing

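The RM differences kept their direction under every alternative run. The t-statistics of the methods were rebuilt here, with an error variance the larger of the probe's own and the mean of 500 probes of similar intensity. With them *Zfp352* and *Tdpoz5* kept 1.76 and 0.84 on the log2 scale with an adjusted p of 1. At 0.15, 0 probes were higher (480 at an unadjusted p under 0.05, against 1405 with limma), and 0 at least 3-fold. The rebuilt test thus did not recover the RM-Zscan4+ enrichment that the paper reports, and the reason was not tested. At a false discovery rate of 0.05, *Zfp352* (1.76) was no longer called, and 75 probes were higher in place of 146. With Cy3 alone *Tdpoz5* (0.88) was not called. Within the batch of replicates 1 and 3 *Dub2* differed by 0.53, and within that of replicate 2 *Zfp352*, *Dub2* and *Tdpoz5* differed by 2.33, 1.44 and 0.90. Leaving out 1 RM array gave 1.47 to 1.92 for *Zfp352*, 0.64 to 0.93 for *Dub2*, 0.82 to 0.87 for *Tdpoz5*, 67 to 161 probes higher (67 without RM-Zscan4+ replicate 1 or with RM-Zscan4- replicate 2 left out, 70 with RM-Zscan4- replicate 1 left out), and 52 to 93 at least 3-fold (fewest without RM-Zscan4+ replicate 1). The replicate block raised the count to 777 and changed no call of the 3 genes (adjusted p = 0.0802, 0.221 and 0.0434 for *Zfp352*, *Dub2* and *Tdpoz5* in limma). In RA, Cy3 alone gave 1.96 for *Zfp352* and 2.34 for *Tdpoz5*, and normexp with loess gave 1.48 for *Dub2* and 1.56 for *Tdpoz5*. Where no value above shows it, the cause was not tested. For each of the 3 genes the Cy3 signal over the negative controls was lowest in Emerald-negative cells, down to 1.15 times for *Dub2* in RM-Zscan4- replicate 2. The software marked every Cy3 spot of the 3 genes as well above background, and the effect of low signal on the values was not tested. Fitting RM arrays alone gave the same values by construction.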
